A study of Mus musculus with 8 samples.

Results

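Loss of 1 Tfam allele was followed here in fibroblasts that already lack Zbp1. The comparison sets 2 Tfam+/-Zbp1-/- libraries against 2 Zbp1-/- libraries, chosen by their genotype labels out of 8 RNA sequencing libraries. All are primary mouse embryonic fibroblasts, cultures grown from dissociated embryos of embryonic day 14 and harvested after 2 passages in DMEM with serum, with no treatment. Both genotypes compared carry the Zbp1 deletion, so they differ by name only in Tfam. The other 4 libraries, 2 of WT and 2 of Tfam+/-, helped to estimate the spread and gave the same allele loss in cells that keep Zbp1. The sources used here do not give the kind of Tfam and Zbp1 allele, the strain or the number of embryos behind each culture. The p-values therefore measure only the spread between these libraries, which may be technical. Of 24972 genes in the table, 13267 had a mean of at least 10 normalized counts over the 8 libraries and were compared.

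Tfam coats the circular mitochondrial genome, compacts it into nucleoids and helps the mitochondrial RNA polymerase to start. Cells short of Tfam are known to mishandle mitochondrial DNA, which can reach the cytosol and start a type I interferon response through cGAS and STING. Zbp1 binds left-handed double-stranded nucleic acids, is itself induced by interferon, and is known both as a trigger of necroptosis and as a partner in sensing mitochondrial DNA.

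The libraries held 16752835 to 18303036 normalized counts. Replicates correlated at r = 0.992 over genes within WT and within Tfam+/-Zbp1-/-, and at 0.973 within Tfam+/- and 0.975 within Zbp1-/-. Zbp1-/- replicate 2 and Tfam+/- replicate 1 are known from earlier work on these values to lie off their partners in the same genes. A term for these 2 libraries passed the threshold in 8669 genes. The 2 libraries were chosen because of that shift in these same values, so this count is no separate support for it. For the same reason p-values from fits with the term may be too small. A second fit with this shared term is given below beside the first fit, and a gene is said to separate when both libraries of one genotype lie above both of the other. All 14 markers taken to define fibroblasts, among them the collagens Col1a1 and Col3a1 and the surface protein Thy1, passed the filter on low values. So did 26 of 28 macrophage and leukocyte markers, so passing the filter does not establish cell identity.

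Tfam itself stood at 424 and 375 normalized counts in Tfam+/-Zbp1-/- and at 675 and 471 in Zbp1-/-, against 629 and 610 in WT. The genotypes separated, but Zbp1-/- replicate 2 lay near the Tfam+/-Zbp1-/- libraries. The log2 change was -0.50 ± 0.21 (SE) and missed the threshold (limma, adjusted p = 0.40). It was -0.73 ± 0.08 with the shared term (limma, adjusted p = 2.3e-06). Leaving out Zbp1-/- replicate 1 gave -0.24 and leaving out Zbp1-/- replicate 2 gave -0.76. Zbp1 was at 0.862 and 2.69 in Tfam+/-Zbp1-/- and at 3.79 and 1.03 in Zbp1-/-, so the genotypes overlapped near 0. WT held only 7.34 and 3.19 normalized counts of Zbp1, whereas Tfam+/- held 64.6 and 69.8, so the low level of the double mutant was apart from Tfam+/- and not clearly from WT.

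A small set of genes passed the threshold between the double mutant and the Zbp1 null cells, and most of them fell. limma called 55 genes, 0.415% of those tested, at an adjusted p under 0.05. Of these, 14 rose (0.106% of genes tested) and 41 fell (0.309%), by 0.61 on the log2 scale or more. Apart from Ifi202b (limma, adjusted p = 0.0073), the limma adjusted p-values of the called genes were 0.025 to 0.0495, not far under the threshold. The libraries separated for all 55, as they did for 49.5% of all genes tested (26.2% higher and 23.3% lower). The median change over all genes was 0.02. With the shared term 3155 genes were called, 23.8% of those tested, 1696 higher (12.8%) and 1459 lower (11.0%), and the 55 were among them with the same sign. The calls depended on which libraries were fitted: 48 of the 55 were still called without Tfam+/- replicate 1 or replicate 2, 1 without WT replicate 1, WT replicate 2 or Zbp1-/- replicate 1, and 0 without Zbp1-/- replicate 2, Tfam+/-Zbp1-/- replicate 1 or Tfam+/-Zbp1-/- replicate 2. Fitting only the 2 genotypes compared, or a replicate block, left 1 of the 55 called, and no filter on low values left 22, while in all of these fits the 55 kept their direction and an unadjusted limma p under 0.05.

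**Figure D1:**
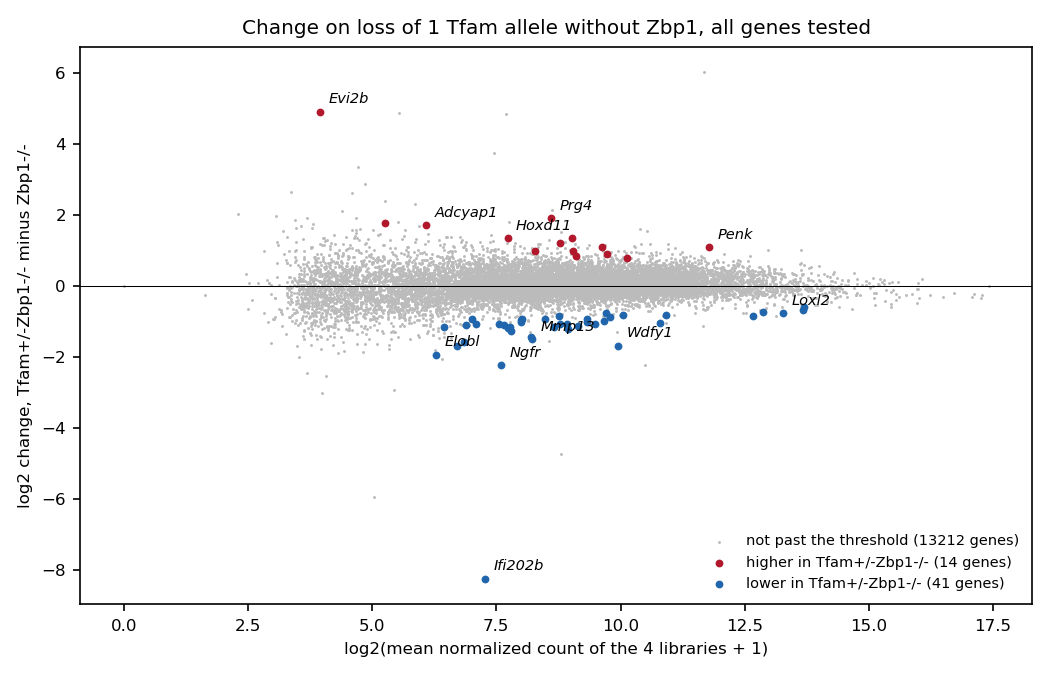
Log2 change of each of the 13267 genes tested (vertical axis) against the log2 of the mean normalized count of the 4 libraries compared (horizontal axis). Grey points missed the threshold, the 14 red points rose and the 41 blue points fell in Tfam+/-Zbp1-/-; most called genes lie within 2 log2 units of 0, and Ifi202b and Evi2b, each with 1 genotype at 0, lie farther out.

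Among the called genes above 0 in both genotypes, Prg4 had the largest rise. Prg4, which encodes the joint lubricant lubricin, was at 600 and 627 normalized counts in Tfam+/-Zbp1-/- and at 188 and 144 in Zbp1-/-. The 2 WT libraries (182 and 211) and the 2 Tfam+/- libraries (106 and 125) lay with Zbp1-/-, so the double mutant alone was high. The log2 change was 1.90 ± 0.17 (limma, adjusted p = 0.029).

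Neuropeptide and peptide hormone genes were among the rises. Adcyap1, the gene of the neuropeptide PACAP, was at 102 and 103 normalized counts in the double mutant and at 30 and 31.9 in Zbp1-/- (log2 change 1.70 ± 0.22, adjusted p = 0.046). Penk, which encodes the enkephalin precursor, was at 4820 and 4730 against 2067 and 2461 (1.08 ± 0.13, adjusted p = 0.039). Apln, the gene of the vascular peptide apelin, was at 727 and 772 against 292 and 301 (1.34 ± 0.11, adjusted p = 0.025). In all 3 genes the double mutant was the highest of the 4 genotypes, with no overlap.

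A pair of ectonucleotidase family genes rose together. Enpp2 encodes autotaxin, which makes lysophosphatidic acid, and stood at 603 and 621 normalized counts in the double mutant against 264 and 262 (log2 change 1.22 ± 0.16, adjusted p = 0.045). Enpp1, whose product makes pyrophosphate and hydrolyses extracellular cGAMP, was at 1074 and 1075 against 524 and 477 (1.10 ± 0.12, adjusted p = 0.035). In the Tfam+/- libraries, which keep Zbp1, both genes were below WT, with Enpp2 at 113 and 152 against 401 and 379.

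The remaining rises were smaller or lay in weakly expressed genes. Coch, which encodes the matrix protein cochlin, changed by a log2 of 0.98 ± 0.13, the transcription factor gene Tfap2b by 0.98 ± 0.14, the oxysterol-binding protein gene Osbpl3 by 0.90 ± 0.12 and the WNT receptor gene Fzd5 by 0.85 ± 0.10 (limma, adjusted p = 0.0413 to 0.0495). Lipg, the gene of endothelial lipase, which was chosen after its values were seen, rose by 0.78 ± 0.10 (adjusted p = 0.045). Efcab2 rose from 18.2 and 14.5 normalized counts to 59.8 and 55.9, above its WT level of 36.7 and 42. Evi2b held 30.3 and 27.5 in the double mutant and 54.9 and 51.5 in WT, and neither Zbp1-/- library listed it above 0. Its neighbour Evi2, looked up after these values were seen, shares its locus on chromosome 11 (79513385 to 79530609, mm10) and showed the reverse, at 37.7 and 29.2 in Zbp1-/- and 0 in the other 6 libraries. Reads of these overlapping genes cannot be assigned to one or the other with certainty.

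The largest fall was that of Ifi202b, a member of the interferon-inducible PYHIN family of DNA-binding proteins. It was at 380 and 238 normalized counts in Zbp1-/- and listed at 0 in both double mutant libraries, and also in all WT and Tfam+/- libraries (chromosome 1, 173962569 to 173982844, mm10; limma, adjusted p = 0.0073). Ngfr, the low-affinity receptor for nerve growth factor and a marker of neural crest cells, went from 266 and 374 to 65.1 and 68.3, a log2 change of -2.23 ± 0.18 (adjusted p = 0.025). WT, at 116 and 114, lay between the genotypes compared.

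For some of the genes that fell it was Zbp1-/- that stood apart from WT, with the double mutant near WT. Wdfy1, which encodes an endosomal adaptor of Toll-like receptor signalling, was at 1702 and 1320 normalized counts in Zbp1-/-, at 424 and 511 in the double mutant and at 411 and 498 in WT (log2 change -1.69 ± 0.19, adjusted p = 0.035). Cadm3, a cell adhesion molecule of neurons and glia, was at 159 and 182 in Zbp1-/-, 56.1 and 57.2 in the double mutant and 64.8 and 53.5 in WT (-1.57 ± 0.19, adjusted p = 0.041). Its relative Cadm4 went from 137 and 178 to 45.2 and 51.5 (-1.68 ± 0.22, limma, adjusted p = 0.045). For Cadm4, however, WT was at 80.6 and 72.3, between the genotypes compared. Over the 41 genes that fell, both Zbp1-/- libraries lay above both WT libraries in 35, and both double mutant libraries lay below both WT libraries in 29. Of the 14 that rose, both double mutant libraries lay above both WT libraries in 13, and both Zbp1-/- libraries lay below them in 9.

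Genes of the matrix and its turnover were among the falls. Mmp13, the gene of the collagenase of cartilage and bone, was at 154 and 154 normalized counts in the double mutant and at 491 and 386 in Zbp1-/- (log2 change -1.49 ± 0.18, adjusted p = 0.040). Dpt, which encodes the collagen-binding protein dermatopontin, was at 308 and 281 against 672 and 691 (-1.21 ± 0.13, adjusted p = 0.035). Loxl2, the gene of a collagen crosslinking enzyme, was at 7390 and 7267 against 12237 and 12629 (-0.76 ± 0.08, adjusted p = 0.035). WT held 13814 and 13846 of Loxl2, so in this gene the double mutant was the genotype apart.

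Sfrp1 and Igfbp3 also fell. Sfrp1, a secreted antagonist of WNT ligands, was at 1181 and 1164 normalized counts in the double mutant and at 2492 and 2307 in Zbp1-/- (log2 change -1.03 ± 0.12, adjusted p = 0.035). Igfbp3, which binds insulin-like growth factors, was at 4657 and 4674 against 8576 and 8252 (-0.85 ± 0.08, adjusted p = 0.035). WT lay at the level of the double mutant in both genes. Igfbp5, the axon guidance gene Slit3 and the growth factor signalling inhibitor Spry1, which were chosen after their values were seen, fell by 0.61, 0.75 and 0.82 on the log2 scale.

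Further genes fell across unrelated functions. Aldh1a2, which makes retinoic acid in the embryo, went from 116 and 125 normalized counts to 54.9 and 51.1 (log2 change -1.17 ± 0.14, adjusted p = 0.040). Ch25h, an interferon-inducible enzyme that makes 25-hydroxycholesterol, went from 165 and 171 to 86.9 and 87 (-0.94 ± 0.13, adjusted p = 0.046). Gpx3, a secreted glutathione peroxidase, changed by -1.01 ± 0.13 (adjusted p = 0.046), Serping1, the inhibitor of complement C1, by -1.06 ± 0.11 (adjusted p = 0.035) and Cdkn1c, an imprinted inhibitor of cyclin-dependent kinases, by -0.81 ± 0.11 (adjusted p = 0.046). Plac8, Kcne4, Pamr1, Ctla2a, Slc22a23 and Elobl fell by log2 changes of -1.94 to -1.15. For these 6 genes both double mutant libraries were below both Zbp1-/- libraries.

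**Figure D2:**
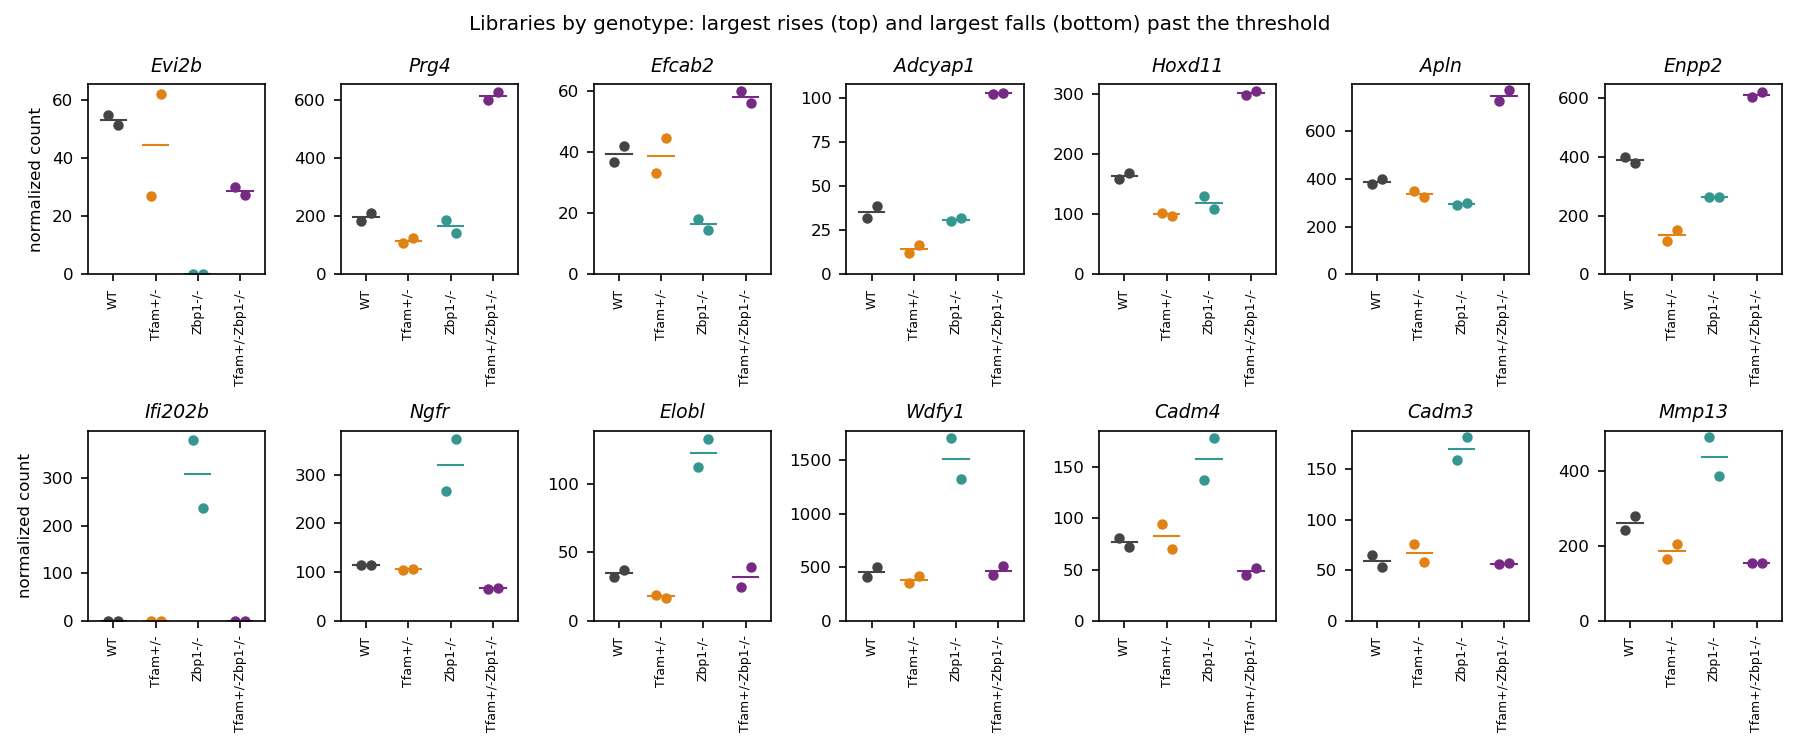
Normalized counts of each library (points) and their mean (bars) in the 4 genotypes for the 7 genes with the largest rise (top row) and the 7 with the largest fall (bottom row) past the threshold. In 6 of the 7 top panels, all but Evi2b, Tfam+/-Zbp1-/- lies above the other genotypes, and in the bottom panels Zbp1-/- does.

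The HOX genes, transcription factors whose combinations mark the position of a cell along the body and limb axes, changed in both directions. Of 39 listed, 34 were tested and 7 were called: Hoxd11 rose, and Hoxb3, Hoxb9, Hoxc5, Hoxc6, Hoxc8 and Hoxc10 fell. Hoxd11 was at 299 and 306 normalized counts in the double mutant and at 130 and 109 in Zbp1-/- (log2 change 1.34 ± 0.14, adjusted p = 0.035). Hoxb9 was at 471 and 457 against 992 and 960 (-1.07 ± 0.10, adjusted p = 0.029), and Hoxc10 at 118 and 120 against 252 and 254 (-1.08 ± 0.13, adjusted p = 0.039). WT lay at 836 and 852 for Hoxb9 and at 222 and 195 for Hoxc10, close to Zbp1-/-, and at 159 and 168 for Hoxd11.

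All tested genes of clusters B and C were lower in the double mutant, whereas clusters A and D held changes in both directions. In cluster B all 8 genes tested were lower with separated libraries (median -1.10), and in cluster C this held for 6 of 7 (median -0.93), against 23.3% of all genes tested. By contrast, the 7 tested genes of paralogue groups 10 to 13 in clusters A and D were all higher with separated libraries (median 1.06), against 26.2% of all genes. Of the 12 tested genes of groups 1 to 9 in clusters A and D, 5 were lower and 1 higher with separated libraries. The other 6 overlapped, and the median of the 12 was -0.34. Hoxd13, which patterns the digits, was at 1959 and 2053 normalized counts in the double mutant and at 839 and 531 in Zbp1-/-, a log2 change of 1.59 ± 0.24 that missed the threshold (adjusted p = 0.062). In the fit with the shared term 14 of the 15 cluster B and C genes were called lower (11.0% of all genes) and these 7 A and D genes were all called higher (12.8%). This grouping of paralogues was chosen after the values were seen. Genes of a cluster are neighbours known to share regulatory elements, so they are not separate observations.

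**Figure D3:**
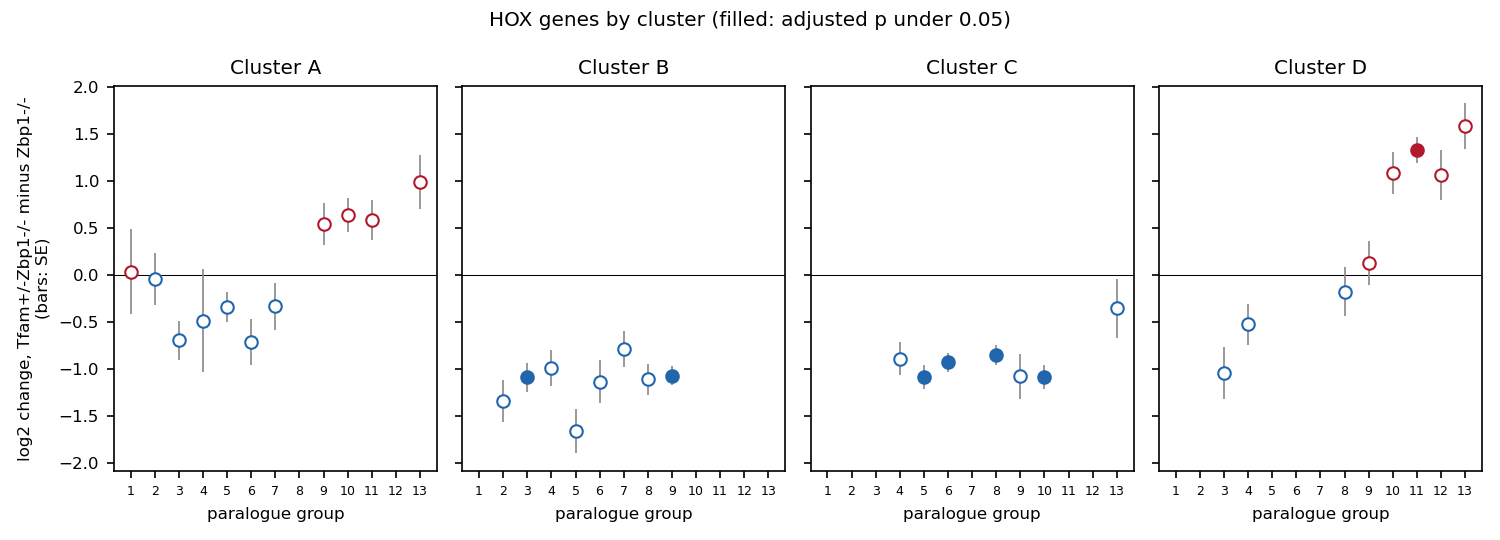
Log2 change from Zbp1-/- to Tfam+/-Zbp1-/- with its SE (vertical axis) for each HOX gene tested, by paralogue group (horizontal axis) in the 4 clusters. Filled points passed the threshold; clusters B and C lie below 0 throughout, whereas in clusters A and D most genes of groups 1 to 9 lie below 0 and those of groups 10 to 13 all lie above it.

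Other patterning factors differed in both directions. Of 50 limb and mesenchyme factors tested, 24 were higher and 16 lower with separated libraries, against 26.2% and 23.3% of all genes. The median was 0.18 and 0 were called, with 10 higher and 9 lower at an unadjusted limma p under 0.05. Lhx2, which acts in limb outgrowth, was at 209 and 193 normalized counts in the double mutant and at 95.9 and 76.2 in Zbp1-/- (log2 change 1.22 ± 0.17, adjusted p = 0.0505). The mesothelial and kidney factor Wt1 was at 41.1 and 56.4 against 108 and 85.4 (-0.98 ± 0.22, adjusted p = 0.15). Of the 50, the shared term fit called 15 higher and 10 lower, against 12.8% and 11.0% of all genes.

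Cell cycle transcripts lay above their Zbp1-/- level in the double mutant, but none of the listed genes passed the threshold of the first fit. All 30 mitosis genes tested were higher with separated libraries, as were 26.2% of all genes, with a median log2 change of 0.49 and a range of 0.16 to 0.82. limma called 0 of them, with 23 higher at an unadjusted p under 0.05. Adding the shared term, all 30 were called higher, against 12.8% of all genes, and the median was 0.44. Of 30 genes of DNA replication and the G1/S transition, 24 were higher with separated libraries and 0 lower, 6 overlapped (median 0.34), 13 were higher at an unadjusted p under 0.05 with 0 called, and 25 were called higher with the shared term. The summed normalized counts of the mitosis genes were 53525 and 53009 in the double mutant, 39192 and 34479 in Zbp1-/- and 44942 and 45585 in WT. WT thus lay between the genotypes compared, and Zbp1-/- replicate 2 was the lowest of the 8 libraries.

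Bub1 and Ccna2 had the largest log2 changes of the mitosis list in the first fit. With the shared term Bub1 lay below the median of the list and Plk1, a mitotic kinase picked out after its values were seen, came first at 0.55. Ccna2, which encodes cyclin A2, was at 2592 and 2578 normalized counts in the double mutant and at 1825 and 1245 in Zbp1-/-, a log2 change of 0.78 ± 0.24 (adjusted p = 0.25) and of 0.49 with the shared term (adjusted p = 1.3e-07). Bub1, a kinase of the spindle checkpoint, was at 1167 and 1086 against 827 and 489 (0.82 ± 0.34, adjusted p = 0.40, and 0.40 with the shared term, adjusted p = 1.4e-04). Tfam+/- replicate 1 was low too, at 1301 for Ccna2 and 570 for Bub1. Without Zbp1-/- replicate 2 the median of the mitosis list was 0.45.

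Promoter sequence describes the 2 cell cycle lists apart from the counts. The lists hold genes of known cell cycle function, so their motif content does not depend on these libraries. It is therefore no test of the changes above. Genes of late cell cycle phases commonly carry a CCAAT box and a cell cycle homology region (CHR, TTTGAA or TTTAAA), which recruit NF-Y and the MuvB complex, whereas genes of the G1/S transition carry E2F sites (TTTCCCGC or TTTGGCGC). Both strands of the 250 bases before each annotated start were searched, using RefSeq promoters of GRCm38.p6, which held 25 of the 30 mitosis genes, 25 of the 30 G1/S genes and 10384 of all genes tested. A CCAAT box was present in 80.0% of the mitosis promoters and 40.7% of all, a CHR in 52.0% against 20.9%, and both together in 48.0% against 8.05%. An E2F site was present in 24.0% of the G1/S promoters, 2.86% of all and 0 of the mitosis promoters. These matches describe the letters in the window and do not show binding.

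The promoters printed belong to the members with the largest change among those that hold these motifs, 3 of mitosis and 2 of G1/S, to show where the motifs lie. Each is 250 bases, 5′ to 3′ on the strand of the gene (GRCm38.p6), with the CCAAT box and CHR of the mitosis genes and the E2F site of the G1/S genes in capitals, in either orientation. Kif11, the spindle motor Eg5, is at chr19:37376132-37376381 on the plus strand, Ccnb1, cyclin B1, at chr13:100786487-100786736 on the minus strand, and Cenpf, a kinetochore protein, at chr1:189688087-189688336 on the minus strand. Pola1, the catalytic subunit of DNA polymerase alpha, is at chrX:93632156-93632405 on the minus strand, and Mcm5, a subunit of the replicative helicase, at chr8:75109259-75109508 on the plus strand.
Kif11: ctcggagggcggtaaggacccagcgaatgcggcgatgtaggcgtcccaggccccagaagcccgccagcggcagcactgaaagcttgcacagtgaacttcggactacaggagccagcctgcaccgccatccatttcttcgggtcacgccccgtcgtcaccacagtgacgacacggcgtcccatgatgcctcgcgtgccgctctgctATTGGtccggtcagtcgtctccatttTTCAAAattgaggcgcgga
Ccnb1: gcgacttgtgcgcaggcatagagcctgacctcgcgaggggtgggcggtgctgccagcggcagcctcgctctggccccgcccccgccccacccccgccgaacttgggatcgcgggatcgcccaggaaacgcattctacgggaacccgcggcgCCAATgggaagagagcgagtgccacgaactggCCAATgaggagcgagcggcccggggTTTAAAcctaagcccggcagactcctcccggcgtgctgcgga
Cenpf: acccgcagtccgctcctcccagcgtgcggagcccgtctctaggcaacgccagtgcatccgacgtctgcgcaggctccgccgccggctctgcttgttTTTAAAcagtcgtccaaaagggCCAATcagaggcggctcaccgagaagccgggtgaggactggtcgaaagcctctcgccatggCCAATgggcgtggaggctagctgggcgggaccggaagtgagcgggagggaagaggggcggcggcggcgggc
Pola1: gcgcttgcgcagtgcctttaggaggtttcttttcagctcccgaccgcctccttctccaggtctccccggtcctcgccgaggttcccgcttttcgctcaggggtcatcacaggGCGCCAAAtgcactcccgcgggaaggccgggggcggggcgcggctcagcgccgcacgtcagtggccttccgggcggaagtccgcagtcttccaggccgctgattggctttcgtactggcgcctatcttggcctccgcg
Mcm5: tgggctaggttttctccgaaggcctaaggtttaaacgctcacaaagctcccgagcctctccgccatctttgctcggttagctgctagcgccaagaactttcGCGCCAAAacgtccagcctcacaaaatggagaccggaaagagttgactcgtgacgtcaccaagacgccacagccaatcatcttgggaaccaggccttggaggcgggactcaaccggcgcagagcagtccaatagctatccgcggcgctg

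The transcripts behind these promoters were each higher in both double mutant libraries than in both Zbp1-/- libraries. Kif11 was at 1910 and 1937 normalized counts against 1355 and 965, Ccnb1 at 1889 and 1883 against 1337 and 1028, and Cenpf at 1619 and 1639 against 1142 and 901. Their log2 changes were 0.75, 0.69 and 0.68 (limma, adjusted p = 0.32, 0.18 and 0.22). Pola1 was at 962 and 894 against 715 and 464 (0.69, adjusted p = 0.44) and Mcm5 at 1318 and 1277 against 885 and 1047 (0.43, adjusted p = 0.24). All 5 passed the threshold with the shared term, where Kif11 was at 0.44, Ccnb1 at 0.50, Cenpf at 0.46, Pola1 at 0.31 and Mcm5 at 0.54.

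Matrix and fibroblast genes were mostly lower in the double mutant than in Zbp1-/-, while their summed levels in the double mutant lay nearer to WT. Of 38 collagen genes tested, 28 were lower and 3 higher with separated libraries (23.3% and 26.2% of all genes; median -0.40), and 2 fell (0.309% of all genes). These were Col14a1, a collagen that binds the surface of fibrils, at 335 and 370 normalized counts against 801 and 751 (log2 change -1.14 ± 0.13, adjusted p = 0.039), and Col24a1, at 179 and 164 against 330 and 347 (-0.97 ± 0.13, adjusted p = 0.045). The most abundant collagen gene, Col1a1, which was chosen after its values were seen, was at 138770 and 134787 against 156157 and 193671 (-0.35 ± 0.17, adjusted p = 0.46). Col10a1, the collagen of hypertrophic cartilage, went the other way, at 1341 and 1295 against 828 and 825 (0.67 ± 0.10, adjusted p = 0.061). The shared term fit called 24 collagen genes lower and 3 higher, against 11.0% and 12.8% of all genes, with a list median of -0.25. The summed level of the collagens was 646950 and 640580 in the double mutant, 748822 and 852279 in Zbp1-/- and 590484 and 594056 in WT.

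Of 41 other matrix and remodelling genes, 22 were lower and 3 higher with separated libraries (23.3% and 26.2% of all genes, list median -0.25). Prg4 rose, and Mmp13, Loxl2 and Prelp fell, the last a leucine-rich proteoglycan at 471 and 414 normalized counts against 786 and 897. The summed level of this list was 713489 and 711048 in the double mutant, 859205 and 829421 in Zbp1-/- and 734281 and 730811 in WT. Of the 14 fibroblast markers, 11 were lower and 1 higher with separated libraries (23.3% and 26.2% of all genes, list median -0.40). Among these markers 0 were called, with 9 lower at an unadjusted limma p under 0.05, and their median was -0.30 with the shared term. Their summed level was 652181 and 645881 in the double mutant, 732335 and 852635 in Zbp1-/- and 630064 and 627288 in WT. Thy1 was at 6371 and 6397 against 9967 and 13108 (log2 change -0.84 ± 0.18, adjusted p = 0.14), while the intermediate filament gene Vim was at 74720 and 73132 against 61199 and 67610 (0.20 ± 0.10, adjusted p = 0.47). In these bulk cultures fewer cells of a type and less RNA per cell cannot be told apart.

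Markers of other cell types moved alongside, and their part in the results above was not tested. Of 16 neural crest and Schwann cell markers tested, 10 were lower and 3 higher with separated libraries (median -0.41). Over all genes the shares were 23.3% and 26.2%. Ngfr and Cadm4 fell, and the summed level of the list went from 10552 and 9563 to 8743 and 8566 normalized counts, with WT at 7859 and 7792. Among those higher were Mitf (log2 change 0.64 ± 0.39) and Ednrb (0.63 ± 0.29), with limma adjusted p = 0.54 and 0.44. The Schwann lineage factor Sox10, looked at after its values were seen, was at 22.4 and 31.9 against 65.2 and 92.7 (log2 change -1.50 ± 0.30, adjusted p = 0.12). Of 10 epithelial and mesothelial markers tested, 7 were lower and 1 higher with separated libraries (median -0.75), against the same 23.3% and 26.2%. Upk3b, a mesothelial surface gene of this list, fell from 559 and 642 to 280 and 284 (-1.08 ± 0.14, limma, adjusted p = 0.045). The summed level of that list was 2978 and 3340 in Zbp1-/- and 2428 and 2515 in the double mutant, with Esrp1 at 0 in these 4 libraries.

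Of 26 macrophage and leukocyte markers tested, 17 were lower and 2 higher with separated libraries, against 23.3% and 26.2% of all genes. The median of these markers was -0.34 and 0 were called, with 8 lower at an unadjusted limma p under 0.05. Their summed level was 3899 and 4014 normalized counts in the double mutant, 4996 and 4790 in Zbp1-/- and 7604 and 7532 in WT, with Cd163 at 0 in the 4 libraries compared. Cd14, a lipopolysaccharide co-receptor, was at 72.2 and 60.6 against 125 and 150 (log2 change -1.04 ± 0.17, adjusted p = 0.077). Of 9 pericyte and smooth muscle markers tested, 6 were lower and 1 higher with separated libraries, against the same shares of all genes. Their median was -0.54, and 0 were called, with 6 lower at an unadjusted limma p under 0.05. The potassium channel gene Kcnj8 was at 3.76 and 3.89 against 20.1 and 35.9. Endothelial (8 tested, median 0.13), adipocyte (6 tested, median 0.24), neuron (9 tested, median -0.23) and skeletal muscle markers (9 tested, median -0.25) had 0 calls. In the 4 libraries compared the endothelial genes Tie1, Cldn5 and Sox17 and the muscle factors Myod1 and Myog were listed at 0.

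**Figure D4:**
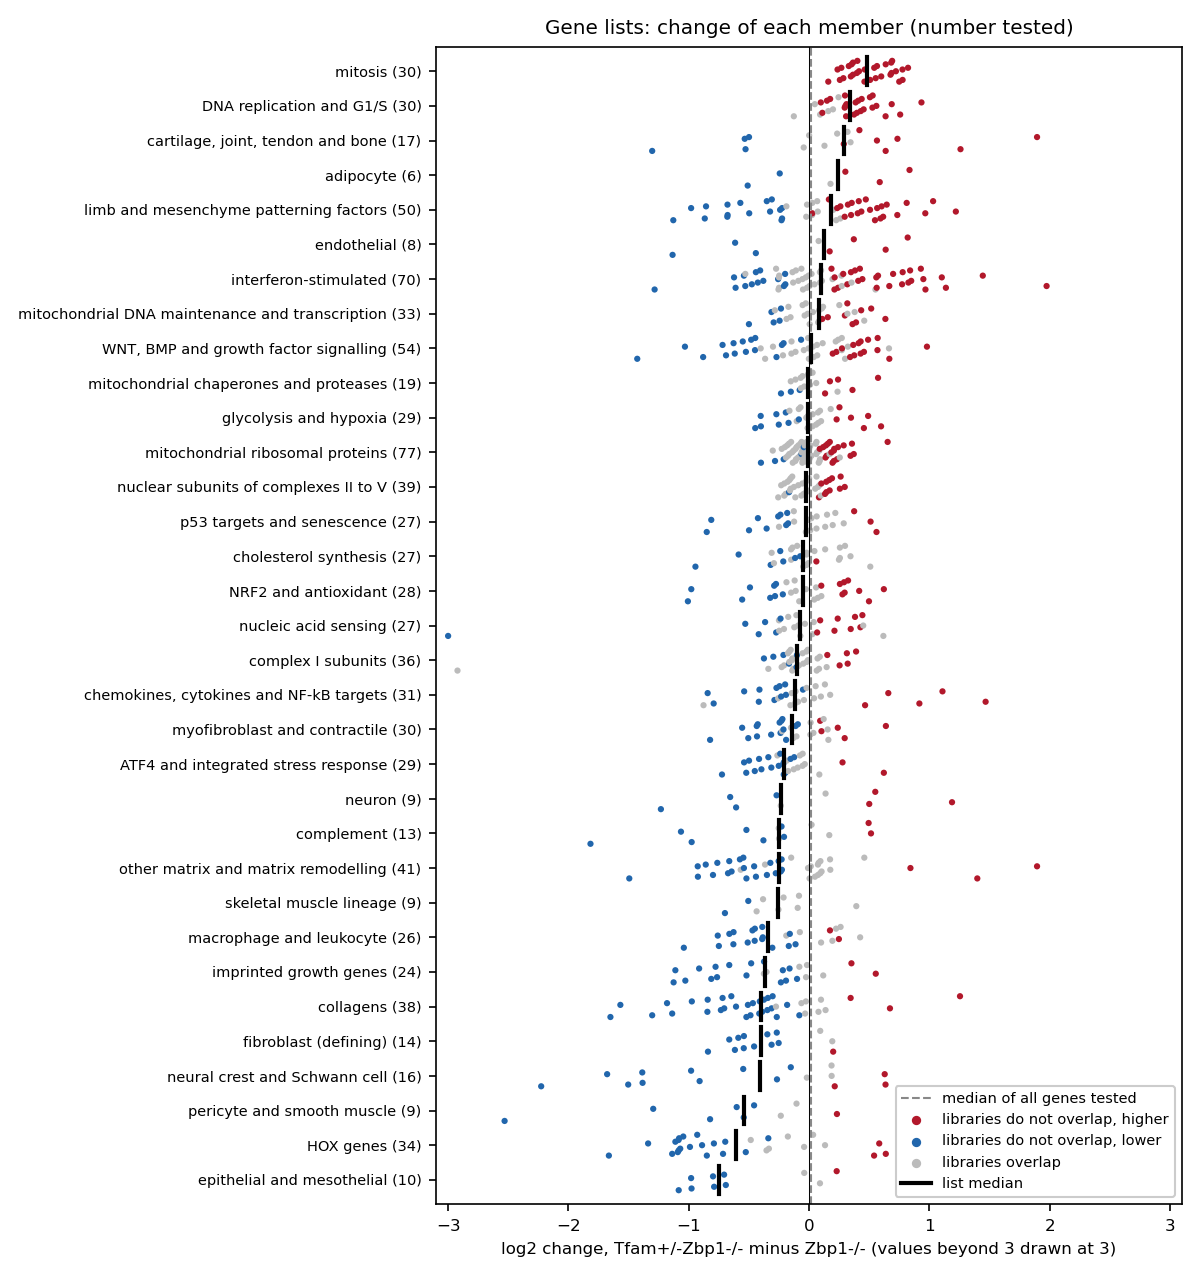
Log2 change of every tested member (points) of the 33 gene lists, with the number tested in brackets, the list median (black bar) and the median of all genes tested (dashed line). Red and blue points are genes whose libraries separated; the mitosis and G1/S lists lie to the right of 0, the epithelial, HOX, pericyte and collagen lists to the left, and the lists of mitochondrial proteins close to 0.

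For the mitochondrion, the organelle in which Tfam works, limma called 0 listed genes in the first fit. The shared term fit called mainly higher ones, except in the list of mitochondrial DNA maintenance and transcription. Of 33 genes of mitochondrial DNA maintenance and transcription, 9 were higher and 5 lower with separated libraries (26.2% and 23.3% of all genes) and 0 were called (median 0.08), with Tfam the 1 gene lower at an unadjusted limma p under 0.05. The complex I subunits (36 tested) had a median of -0.10 and the mitochondrial ribosomal proteins (77 tested) one of -0.01, with 0 called in either list, and at an unadjusted p under 0.05 these lists had 0 genes and 1 gene in each direction. These medians were 0.08 and 0.14 with the shared term, so their sign depended on how the 2 shifted libraries were handled. Mitochondrial chaperones and proteases had a median of -0.01 over 19 genes, and of 0.10 with the shared term. The shared term fit called 10 of 36 complex I genes higher and 0 lower, 17 of 77 ribosomal protein genes higher and 1 lower, 9 of 19 chaperone and protease genes higher and 0 lower, and 1 gene of mitochondrial DNA maintenance higher and 2 lower, against 12.8% higher and 11.0% lower of all genes. Yme1l1, an inner membrane protease of that list, showed the shift of Zbp1-/- replicate 2, at 3752 and 1845 normalized counts in Zbp1-/- and 3929 and 3903 in the double mutant.

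No gene of the integrated stress response passed the threshold. Mitochondrial faults can start that response through the factor ATF4. Of 29 genes tested, 17 were lower and 2 higher with separated libraries, against 23.3% and 26.2% of all genes. At an unadjusted limma p under 0.05, 1 was higher and 3 lower, and the median change was -0.21. Trib3, a pseudokinase induced by ATF4, was at 905 and 933 normalized counts against 1176 and 1519 (log2 change -0.54 ± 0.18, adjusted p = 0.29). Psat1, an enzyme of serine synthesis, was at 6103 and 6008 against 4987 and 4999 (0.28 ± 0.08, adjusted p = 0.25). The fit with the shared term called 4 higher and 9 lower (12.8% and 11.0% of all genes), with a list median of -0.07.

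In Tfam+/- against WT limma called 51 of 70 interferon-stimulated genes tested higher (0.731% of all genes were called there in either direction). Without Zbp1, 0.415% of all genes were called and 0 of these 70, which is near that share. Their median change was 0.10. Of the 70, 28 (40%) were higher and 14 (20%) lower with separated libraries, against 26.2% and 23.3% of all genes. At an unadjusted limma p under 0.05, 15 were higher and 5 lower. The test of the difference between the backgrounds called 29 of the 70 below 0 and 0 above it (median interaction -1.89), against 0.663% of all genes in either direction, and 64 below 0 with the shared term. Ifi44 was at 48.9 and 52.9 normalized counts in the double mutant and at 22.5 and 14.4 in Zbp1-/- (log2 change 1.44 ± 0.38, adjusted p = 0.20), and the antiviral GTPase gene Mx1 at 8.53 and 15.9 against 1.02 and 4.15 (1.97 ± 0.55, adjusted p = 0.22). Slfn5, a Schlafen family member, went the other way, at 47.8 and 43.6 against 116 and 109 (-1.28 ± 0.18, adjusted p = 0.056). The shared term fit called 17 interferon genes higher and 9 lower, against 12.8% and 11.0% of all genes. Ifit1, Cxcl10 and Isg15 were on the higher side and H2-K1 and Tap1 on the lower. These genes were picked out after their values were seen. Isg15, a ubiquitin-like modifier, was at 150 and 180 against 80.9 and 103, while Tfam+/- held 1410 and 1038.

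Growth-related lists gave few calls. Of 24 imprinted genes 16 were lower and 2 higher with separated libraries (23.3% and 26.2% of all genes, list median -0.36), and Cdkn1c fell. Dlk1, a membrane protein of progenitor cells, was at 2037 and 2011 normalized counts against 3814 and 5115 (log2 change -1.13 ± 0.19, adjusted p = 0.085). Among 54 genes of WNT, BMP and growth factor signalling 15 were higher and 16 lower with separated libraries, shares close to those of all genes (26.2% and 23.3%), with a median of 0.02 that was -0.04 with the shared term. The complement gene C3 was at 30.6 and 34.7 against 96.6 and 143 (-1.82 ± 0.30, adjusted p = 0.078), and Serping1 was the 1 gene of 13 in its list that fell.

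Skeletal and contractile genes were mixed. Of 17 cartilage, joint, tendon and bone genes tested, 7 were higher and 4 lower with separated libraries (median 0.29). Over all genes the shares were 26.2% and 23.3%. In this list Prg4 alone rose. Col2a1, the main collagen of cartilage, lay at the low end, at 572 and 544 normalized counts in the double mutant and 1193 and 1591 in Zbp1-/- (log2 change -1.30 ± 0.21, adjusted p = 0.080). Of 30 myofibroblast and contractile genes, 15 were lower and 5 higher (23.3% and 26.2% of all genes, list median -0.14). Here 0 were called, with 5 lower at an unadjusted limma p under 0.05. Myh11, the smooth muscle myosin heavy chain, was at 526 and 486 against 851 and 940 (-0.82 ± 0.12, adjusted p = 0.060).

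Inflammatory, antioxidant and growth arrest lists had members in both directions. Of 31 chemokine, cytokine and NF-kB target genes 12 were lower and 5 higher with separated libraries, against 23.3% and 26.2% of all genes. Their median was -0.12 and 0 were called, with 3 higher and 6 lower at an unadjusted limma p under 0.05. The neutrophil chemokine gene Cxcl5 was at 1065 and 1119 normalized counts against 703 and 363 (log2 change 1.11 ± 0.33, adjusted p = 0.24), and the adhesion molecule gene Icam1 at 476 and 495 against 741 and 956 (-0.79 ± 0.17, adjusted p = 0.14). Of 28 NRF2 and antioxidant genes 9 were higher and 9 lower, near the shares of all genes (26.2% and 23.3%; median -0.05), and Gpx3 fell. Of 27 genes of p53 targets and senescence 10 were lower and 3 higher (23.3% and 26.2% of all genes, list median -0.03). Igfbp3 and Cdkn1c of this list fell.

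The remaining metabolic and sensing lists had medians near 0. Of 27 cholesterol genes 7 were lower and 1 higher with separated libraries (23.3% and 26.2% of all genes, list median -0.05), and Ch25h fell. Of 27 nucleic acid sensing genes 8 were higher and 6 lower, near the shares of all genes (26.2% and 23.3%, list median -0.07), and Ifi202b fell. Its relative Ifi203, also of the PYHIN family, was at 42.1 and 42.7 normalized counts in the double mutant and at 67.5 and 56.3 in Zbp1-/- (log2 change -0.53 ± 0.34, adjusted p = 0.55). Glycolysis and hypoxia genes (29 tested, median -0.01) and the nuclear subunits of complexes II to V (39 tested, median -0.02) had 0 calls. At an unadjusted limma p under 0.05, 2 of the first list were higher and 3 lower, and 3 of the second were higher. The shared term fit called 10 glycolysis and hypoxia genes higher and 3 lower, and 19 of the 39 complex II to V genes higher and 0 lower (12.8% and 11.0% of all genes), 8 of the latter list with an interaction above 0 in that fit (16.9% of all genes in either direction). The medians of the NRF2, sensing, glycolysis and complex II to V lists changed sign in the fit with the shared term.

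Whether a change differed between the Zbp1 backgrounds was tested as an interaction, in which the WT to Tfam+/- change is subtracted from the change without Zbp1. Here limma called 88 genes, 0.663% of those tested. Of the 55 genes called without Zbp1, 21 were among them, 10 of the 14 that rose and 11 of the 41 that fell. The interaction contains the change by which the 55 were chosen, so this overlap is partly built in and is no separate support. Of the 14 that rose, 12 had a change below 0 from WT to Tfam+/-, with a median of -0.48. Of the 41 that fell, 28 were below 0 and 12 above 0 there, with a median of -0.14. The changes with and without Zbp1 share no library, but the interaction includes both. The interaction calls fell to 0 without WT replicate 1, WT replicate 2, Zbp1-/- replicate 2, Tfam+/-Zbp1-/- replicate 1 or Tfam+/-Zbp1-/- replicate 2, with 1005 to 1210 genes at an unadjusted limma p under 0.05, and were 33 without Tfam+/- replicate 1 and 56 without Zbp1-/- replicate 1.

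Prg4 had an interaction of 2.66 ± 0.25 (adjusted p = 0.019), Adcyap1 of 2.96 ± 0.32 (adjusted p = 0.020) and Enpp2 of 2.78 ± 0.22 (adjusted p = 0.015). For Ngfr it was -2.11 ± 0.26 (adjusted p = 0.030). For Igfbp3, by contrast, the change was -0.94 with Zbp1 and -0.85 without it, a difference of 0.09 ± 0.12 (adjusted p = 0.63). Sfrp1 gave -0.75 and -1.03, a difference of -0.29 ± 0.17 (adjusted p = 0.34) that was -0.46 and past the threshold with the shared term (adjusted p = 0.00033). For the mitosis genes the median interaction was 0.56 with 0 calls, and with the shared term 23 of 30 were called above 0 (16.9% of all genes were called in either direction).

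**Figure D5:**
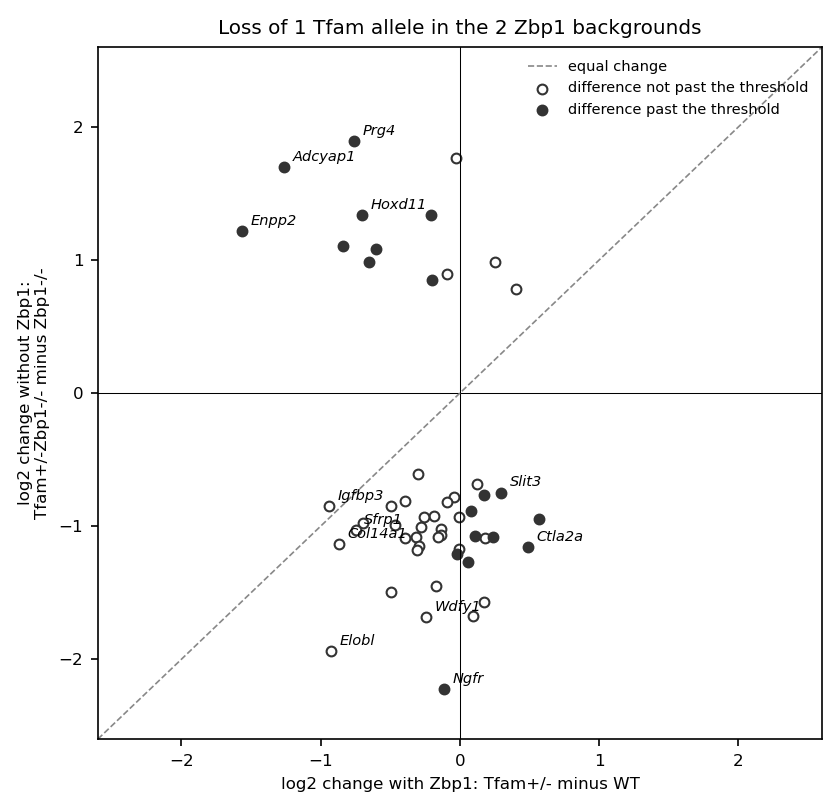
Change on loss of 1 Tfam allele without Zbp1 (vertical axis) against the change with Zbp1 (horizontal axis), both log2, for 53 of the 55 called genes; Ifi202b and Evi2b are left out because 1 genotype is at 0. Filled points passed the test of the difference; genes that rose without Zbp1 lie mostly left of 0, and Igfbp3 lies near the line of equal change.

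The called genes were spread over every autosome and the X chromosome, and 0.415% of all genes tested were called. Of the 55, 12 lay on chromosome 1 (1.56% of 768 genes tested there) and 9 on chromosome 11 (0.844% of 1066). Chromosome 15 held 6 (1.15% of 521) and chromosome 19 held 4 (0.885% of 452). A total of 20 lay within 5 Mb of another called gene, among them the called HOX B and HOX C genes and Ngfr. Whether 20 is more than position alone would give was not tested. Ifi202b and Cadm3 are 0.594 Mb apart, and both were high in Zbp1-/-. Wdfy1 and Kcne4 are 0.882 Mb apart and both fell, from 304 and 319 normalized counts to 125 and 132 for Kcne4, a potassium channel subunit. Dmrt2, a transcription factor gene, and Pgm5, a phosphoglucomutase relative, are 0.811 Mb apart on chromosome 19 and fell by log2 changes of -1.09 ± 0.15 and -0.99 ± 0.11. Elobl and Scpep1, which codes for a serine carboxypeptidase, adjoin on chromosome 11 and fell by log2 changes of -1.94 ± 0.26 and -0.69 ± 0.09 (limma, adjusted p = 0.048 for both).

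Neighbours did not always move the same way. Enpp2 rose and Col14a1 fell at a distance of 0.355 Mb on chromosome 15, and Fzd5 rose while Adam23, an integrin-binding protein of the nervous system, fell from 1116 and 996 to 603 and 627 at 1.13 Mb on chromosome 1. Efcab2 rose at 4.42 Mb from Ifi202b. Ngfr lies 0.684 Mb from Hoxb9, its nearest called neighbour, and Hoxb9 and Hoxb3 fell with it.

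A second locus of overlapping genes also held values at 0. On chromosome 2, Pla2g4b (120033433 to 120043033, mm10) was at 45.5 and 81.2 normalized counts in Zbp1-/- and listed at 0 in the double mutant, but it also switched within genotypes, at 29.4 and 0 in WT and 0 and 37.8 in Tfam+/-. Gm28042, whose span (120027483 to 120043033) covers it, was at 8.14 and 0 in Zbp1-/- and at 85.9 and 88.1 in the double mutant. These genes were chosen after their values were seen, and how reads were shared between them cannot be told from the table.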

How the data were processed

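RNA of 8 libraries, 2 for each of 4 genotypes, was compared as values per gene, with genotype and replicate taken from the sample labels. Reads were aligned with STAR 2.6.1a and quantified with Salmon, per the submitters' processing notes, in the apps RNAseq Alignment 2.0.0 and RNA-seq Differential Expression 1.0.0 against mm10 RefSeq genes, per the series' design text. The signal values are normalized counts that the authors deposited; the sources used here do not give their scaling factors or the read depth, and values near 0 were not whole multiples of 1 read (22.2 to 34.9% within 0.01), so no count model was run. Zbp1-/- and double mutant deviations of equal replicate number did not go together (r = 0.0184).

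Values were taken as log2(normalized count + 1), a scale that understates changes of low genes, and genes averaging under 10 across the 8 libraries were left out. Limma 3.58.1 (R 4.3.3) fitted the 4 genotypes with a mean-variance trend, and Benjamini-Hochberg adjusted p-values under 0.05 over all genes tested were called. Errors are standard errors of that fit. The smallest p that an exact permutation test can give with 2 libraries a group is 0.333, so none was used. The script was tested on simulated data. The alternatives tried were other pseudocounts (5 and 0.1), no filter on low values, a minimum mean of 50, rescaling by trimmed mean of M-values, no trend, only the 2 genotypes compared, a replicate block, the shared term, 6 libraries without the 2 shifted ones, and each library left out.

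The comparison, the members and the 33 gene lists were chosen with earlier results of these data known. Named by rule were Tfam and Zbp1, the called genes with separated libraries (12 largest rises, 15 largest falls), called list members with up to 2 largest rises and falls per list, and called genes within 5 Mb of another. Of 24972 names, 97.7% matched RefSeq, and 26 were altered to dates and not read as genes. Figures were drawn with matplotlib 3.10.9.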

Additional observations from a re-analysis of the deposited data

Results flagged for a closer look

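The genes listed here are those named by rule whose log2 change between the Tfam genotypes differed between the Zbp1 backgrounds. They passed limma's test of the difference at an adjusted p under 0.05. These calls depended on which libraries were fitted, and differences between embryos or cultures cannot be told apart from the allele. Each value is the log2 change without Zbp1 less the log2 change with it. Values above 0 were those of Cxcl15, a lung and epithelial chemokine (3.89), Adcyap1 (2.96), Enpp2 (2.78), Hoxd13 (2.71), Prg4 (2.66), Thbs4, a thrombospondin of tendon (2.09), Hoxd11 (2.04), Enpp1 (1.94), Lhx2 (1.84), Erg, an ETS factor of endothelium and joints (1.81), Penk (1.68), Coch (1.64), Apln (1.54), Col10a1 (1.35) and Fzd5 (1.06). For Evi2b the fitted value of 5.26 rests on a Zbp1-/- level of 0 and is no bound.

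Values below 0 were those of the interferon-stimulated genes Slfn5 (-2.85) and Sp100 (-2.77), of Ngfr (-2.11), Ctla2a (-1.64), Ch25h (-1.51), Kcne4 (-1.32), Hoxc10 (-1.32), Dpt (-1.19), Hoxb9 (-1.18) and Loxl2 (-0.94). Ifi202b had a fitted value of -8.24 with 6 libraries at 0. In Cxcl15 the double mutant held 106 and 97.6 normalized counts against 35.6 and 36.7 in Zbp1-/-, a log2 change of 1.47 that missed the threshold (adjusted p = 0.12).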

How the results depend on the processing

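Against 55 genes called (14 higher, 41 lower) and 88 with an interaction, no filter gave 26 (9 and 17) and 47, the shared term 3155 (1696 and 1459) and 2240, and the 6 libraries 3102 (1671 and 1431) and 2534. Fitting only the 2 genotypes compared called 1 gene (0 higher, 1 lower). The replicate block also called 1 (0 higher, 1 lower; 1200 at an unadjusted p under 0.05) and 0 interactions (1381 unadjusted); equal replicate numbers share only a number here. Leaving out each library gave 0 to 69 called, 0 to 23 higher, 0 to 46 lower and 0 to 126 interactions. Tfam moved to -0.73 with the shared term and -0.76 with 6 libraries, both past the threshold, and ranged from -0.76 to -0.24 with a library left out. Zbp1 ranged from -0.87 to 0.37, and reversed to 0.37 without Zbp1-/- replicate 1 and 0.24 without Tfam+/-Zbp1-/- replicate 1. The cause was not tested. Counts of calls under the other pseudocounts, the higher minimum, rescaling and no trend lay between 49 and 57. Calls were 25.5% higher genes, and 53.8% with the shared term. All 55 kept their direction in each setting, except that the minimum of 50 tested 52 of them. With edgeR no fit was run, since reads could not be recovered.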
